A study of Mus musculus with 7 samples.

Results

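Ceramide and its sphingolipid products are built by a short chain of enzymes in the endoplasmic reticulum and Golgi, and 10 genes of that chain were followed in livers of mice fed a steatohepatitis diet. They were taken by symbol from the liver count table, which lists 23347 genes, and comprise *Sptlc1*, *Sptlc2*, *Kdsr*, *Cers2*, *Cers4*, *Cers5*, *Cers6*, *Degs1*, *Sgms1* and *Ugcg*. All 10 were present and all 10 were among the 15179 genes with enough counts to be tested. RNA was sequenced from whole liver, with 1 library per mouse. The control group held 4 B4galt1 flox/flox mice, whose *B4galt1* alleles carry recombination sites and which the sample labels call WT. The other group held 3 mice labelled B4-HKO, bred from the same flox/flox line with Alb-Cre. Alb-Cre is a recombinase driven by the albumin promoter and so directed to hepatocytes. All were male, on a C57BL/6 background, 6 to 8 weeks old when feeding began, and received CDAHFD, a high-fat diet lacking choline and low in methionine, for 15 weeks. Controls were littermates without Cre, so Cre expression and the loss of *B4galt1* cannot be told apart. The groups are called flox/flox and HKO below, and chow-fed mice were not analysed here.

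Sphingolipid synthesis starts when serine palmitoyltransferase joins serine to palmitoyl-CoA. The product is reduced to sphinganine, acylated by a ceramide synthase to dihydroceramide, and desaturated to ceramide. Ceramide then receives phosphocholine to become sphingomyelin, or glucose to become glucosylceramide, which galactosyltransferases of the *B4galt* family extend to lactosylceramide. In steatotic liver, ceramides are studied as lipotoxic species and as regulators of insulin action.

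*Degs1*, the dihydroceramide desaturase that inserts the trans unsaturation of ceramide, was lower in HKO livers, and it was the sole member to pass the test. Levels are CPM, counts scaled to a common library size by the TMM method, unless FPKM, which also divides by gene length, is named. To be called, a gene needed a log2 fold change beyond 0.58 in either direction and a Benjamini-Hochberg adjusted p, over all genes tested, under 0.05 in the quasi-likelihood test of edgeR. By that rule 1 of 10 members was called lower, against 7.83% of all genes, and 0 were called higher, against 8.0%. Without regard to direction the background was 15.8%, so the number of calls among the members was no larger than that of the liver transcriptome at large. With an unadjusted p under 0.05, 3 members were lower and 0 higher, against 16.1% and 16.8% of all genes. DESeq2 also called 1 lower and 0 higher, against 10.3% and 11.3%. The values of *Sptlc2*, *Kdsr* and *Degs1* did not overlap between groups, each being lower in all 3 HKO livers than in every flox/flox liver. That is 3 of 10 members, against 15.0% of all genes in that direction, and 0 members lay wholly higher, against 13.6% (28.6% for either direction). The median log2 fold change was -0.19 over the members and 0.02 over all genes tested, with 6 members below 0 and 4 above.

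The genes whose groups did not overlap act at separate steps of the chain, and of these *Degs1* alone was called. *Kdsr* was separated only narrowly, at 24.0 CPM in HKO replicate 1 against 24.5 CPM in flox/flox replicate 1. Lack of overlap was also common among all genes, at 15.0% with HKO lower and 28.6% in either direction. The promoters of *Degs1*, *Kdsr* and *Sptlc2* were selected by lack of overlap alone, which does not mark them as a group. Each line gives the 250 bases before the RefSeq start site on the gene's strand, 5′ to 3′, in build GRCm38.p6. *Degs1* lies at chr1:182282196-182282445, *Kdsr* at chr1:106759743-106759992 and *Sptlc2* at chr12:87388356-87388605, all on the minus strand. Capitals mark matches, on either strand, to the E-box CACGTG, the CCAAT box CCAAT, the GC box GGGCGG, the nuclear receptor hexamer AGGTCA and the sterol regulatory motif TCACNCCAC.
Degs1: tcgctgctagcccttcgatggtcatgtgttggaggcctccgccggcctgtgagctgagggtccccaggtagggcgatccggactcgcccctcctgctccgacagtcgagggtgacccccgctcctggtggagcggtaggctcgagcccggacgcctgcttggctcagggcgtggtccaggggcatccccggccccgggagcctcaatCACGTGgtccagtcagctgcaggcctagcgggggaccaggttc
Kdsr: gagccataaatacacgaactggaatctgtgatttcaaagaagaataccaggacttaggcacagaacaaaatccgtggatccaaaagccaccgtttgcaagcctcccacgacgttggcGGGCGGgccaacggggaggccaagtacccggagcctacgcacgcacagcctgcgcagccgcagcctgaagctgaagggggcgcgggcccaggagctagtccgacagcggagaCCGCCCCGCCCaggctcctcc
Sptlc2: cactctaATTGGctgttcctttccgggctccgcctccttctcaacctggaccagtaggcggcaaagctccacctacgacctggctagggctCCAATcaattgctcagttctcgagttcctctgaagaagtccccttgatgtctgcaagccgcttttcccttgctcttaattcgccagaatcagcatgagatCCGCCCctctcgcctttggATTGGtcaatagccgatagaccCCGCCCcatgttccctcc

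No motif of this set stood in all 3 promoters, and *Kdsr* and *Sptlc2* shared the GC box. *Degs1* has an E-box 43 bases before the start site and no other match. The E-box stands in 6.02% of all 32851 promoters of this length and in 3 of the 14 member promoters, which cover all 10 genes. Among members it is also found in *Cers2* and *Cers6*, whose levels overlapped between groups. *Kdsr* has GC boxes beginning 133, 21 and 16 bases before its start, of which the last 2 overlap each other. *Sptlc2* has CCAAT boxes at 243, 159 and 40 bases and GC boxes at 59 and 18 bases. GC boxes occur in 32.7% of all promoters and in 9 of the 14 member promoters. These belong to 8 members, 6 of which overlapped between groups. CCAAT boxes occur in 33.8% of all promoters and in 5 of the 14, which belong to 5 members. The AGGTCA hexamer occurs in 14.0% and in 3 of the 14, in promoters of 2 members, *Cers2* and *Sgms1*. The sterol motif occurs in 1.05% and in 0 of the 14 member promoters. These matches describe letters in the window and not binding, and the count table itself carries no coordinates.

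Several properties of the whole livers stand beside every result here. *B4galt1* itself was measured at 48.7, 53.0, 49.2 and 51.6 CPM in flox/flox replicates 1 to 4 and at 28.4, 23.9 and 53.7 CPM in HKO replicates 1 to 3. Its log2 fold change was -0.52 (95% interval -1.08 to 0.04, adjusted p = 0.181 from edgeR). Without HKO replicate 3 it was -0.96 and was called (adjusted p = 0.0139), and without HKO replicate 2 it was -0.30 (adjusted p = 0.461). It was also called by limma on log2(FPKM + 1) and log2(FPKM + 0.1) of genes at 1 FPKM or more in 3 mice. The values were -0.67 and -0.73 (limma adjusted p = 0.0389 and 0.0382). Those fits used FPKM without TMM scaling, and all their genes had median changes of -0.14 and -0.18, against -0.05 with TMM. HKO replicate 3 exceeded all flox/flox livers, so directions below are those of libraries carrying the HKO label. Total counts ranged from 37838654 to 39668509 in flox/flox and from 30608271 to 34586588 in HKO libraries, and mitochondrially encoded transcripts took 3.88% to 8.0% against 14.4% to 22.6% of counts. Hepatocyte markers summed to between 81950 and 119746 CPM in flox/flox and between 92444 and 145717 CPM in HKO livers, with 1 of 6, *Cyp2e1*, called lower. *Alb* took most of these sums, at means of 75054 and 91684 CPM. *Apoa1* was higher without overlap (log2 fold change 0.70, adjusted p = 0.109 from edgeR) and *Cps1* lower (-0.85, adjusted p = 0.110), neither called. Macrophage markers summed to 284 to 518 CPM against 186 to 214 CPM, without overlap, and 3 of 5 were called lower. Summed markers of the remaining lists overlapped between groups, and 1 of those genes was called, endothelial *Kdr*, which was lower. In whole liver, fewer cells of a type and less RNA per cell cannot be told apart, and the part of these differences in the members' values was not tested.

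Serine palmitoyltransferase, the committing enzyme, is a dimer of SPTLC1 and a catalytic partner. *Sptlc1* (NCBI gene 268656, chromosome 13) had 22.5, 28.7, 27.9 and 24.2 CPM in flox/flox replicates 1 to 4 and 17.6, 20.4 and 23.7 CPM in HKO replicates 1 to 3. HKO replicate 3 lay within the flox/flox range, and the log2 fold change was -0.33 (standard error 0.18, 95% interval -0.73 to 0.07, adjusted p = 0.238 from edgeR). *Sptlc2* (NCBI gene 20773, chromosome 12), which encodes the catalytic subunit, had 37.2, 38.5, 46.3 and 34.7 CPM against 27.5, 27.3 and 28.8 CPM. The HKO values were close together and all beneath the lowest control. Its log2 fold change was -0.49 (standard error 0.17, interval -0.87 to -0.11, adjusted p = 0.0721), short of the threshold. It was called under 1 alternative, limma on log2(FPKM + 0.1), at -0.60 with an adjusted p of 0.0498. That fit used FPKM without TMM scaling, and all its genes had a median change of -0.18, against -0.05 with TMM. Within each liver the FPKM ratio of *Sptlc2* to *Sptlc1* was 0.801 ± 0.085 (SD, n = 4) in flox/flox and 0.722 ± 0.091 (SD, n = 3) in HKO livers, so the balance of the subunits' transcripts overlapped.

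*Kdsr* (NCBI gene 70750, chromosome 1) encodes 3-ketodihydrosphingosine reductase, which makes sphinganine. It had 24.5, 34.9, 32.2 and 27.6 CPM in flox/flox and 24.0, 20.2 and 22.7 CPM in HKO livers. The separation was narrow, since HKO replicate 1 lay just under flox/flox replicate 1. The log2 fold change was -0.42 (standard error 0.18, interval -0.82 to -0.01, adjusted p = 0.140 from edgeR), and it did not pass.

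**Figure D1:**
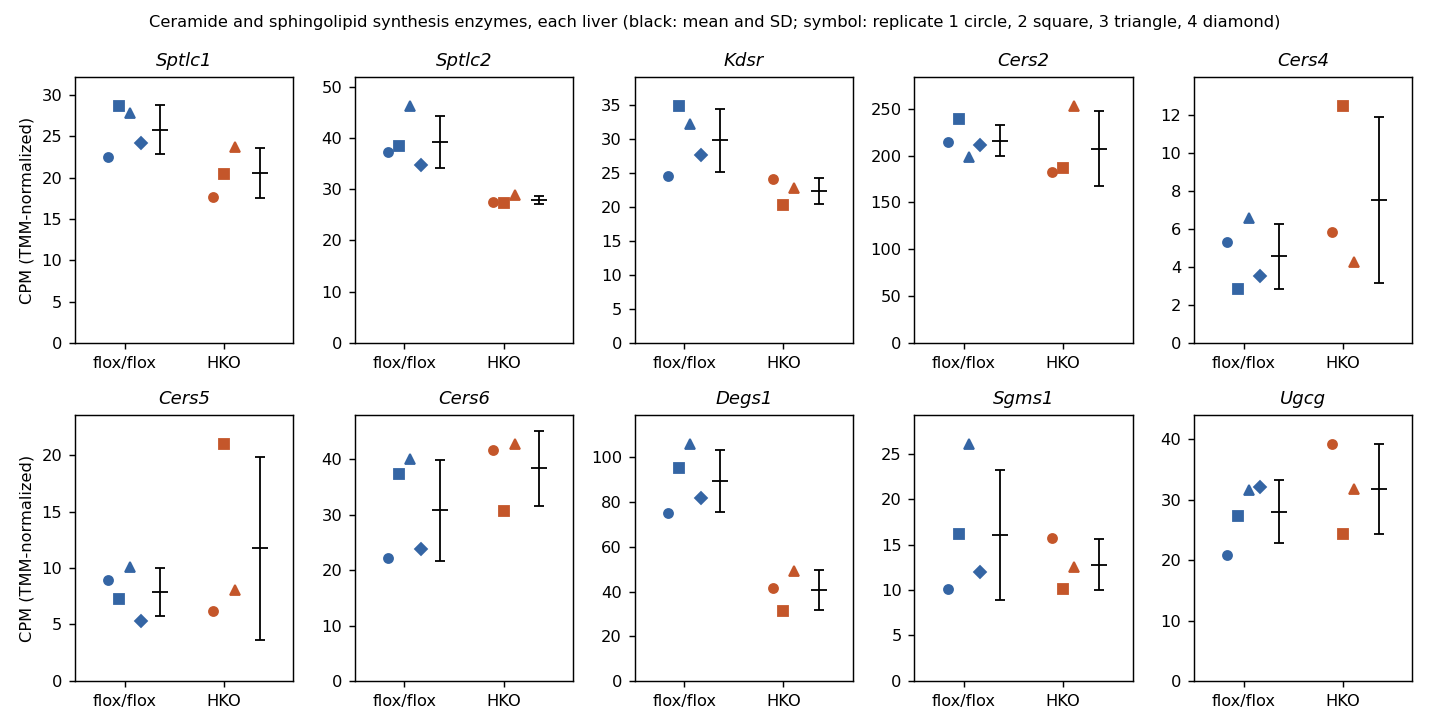
TMM-normalized CPM of the 10 synthesis enzymes (vertical axis, from 0) in each flox/flox (blue) and HKO (orange) liver, with the group mean and SD in black. *Degs1*, at 31.5 to 49.0 CPM in HKO and 74.9 to 106 CPM in flox/flox livers, is set apart, while HKO replicate 2 alone is high for *Cers4* and *Cers5*.

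Ceramide synthases attach the acyl chain, and each prefers certain chain lengths. *Cers2* (NCBI gene 76893, chromosome 3), which makes very-long-chain ceramides and is the main hepatic form, had 215, 239, 198 and 212 CPM in flox/flox and 183, 186 and 253 CPM in HKO livers. HKO replicate 3 was the highest of all livers, and HKO replicates 1 and 2 were the lowest. The log2 fold change was -0.06 (standard error 0.20, interval -0.48 to 0.37, adjusted p = 0.865 from edgeR), and it turned to 0.01 when HKO replicate 1 or HKO replicate 2 was left out.

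*Cers4* (NCBI gene 67260, chromosome 8), a synthase of long and very long chains, was low in all livers. It had 5.33, 2.81, 6.58 and 3.53 CPM in flox/flox and 5.84, 12.5 and 4.28 CPM in HKO livers. Its log2 fold change was 0.72 (standard error 0.40, interval -0.14 to 1.59, adjusted p = 0.226 from edgeR). *Cers5* (NCBI gene 71949, chromosome 15), a synthase of palmitoyl ceramide, had 8.94, 7.23, 10.1 and 5.28 CPM against 6.20, 21.0 and 8.03 CPM. HKO replicate 2 exceeded every other liver for both genes, and the remaining HKO livers lay inside the flox/flox range. For *Cers5* the log2 fold change was 0.58 (standard error 0.39, interval -0.27 to 1.42, adjusted p = 0.321). Without HKO replicate 2 it was -0.15, and that of *Cers4* was 0.15, so both estimates rested on that liver. The same liver had the highest cholangiocyte markers, with *Krt7* at 14.1 CPM, *Krt19* at 12.2 CPM, *Sox9* at 20.4 CPM and *Epcam* at 26.3 CPM. The summed cholangiocyte list was 14.0 to 38.6 CPM in flox/flox livers and 18.9 to 72.9 CPM in HKO livers, with 0 of 4 genes called by edgeR (0 at an unadjusted p under 0.05) and none at 0. The part of these markers in the *Cers4* and *Cers5* values was not tested.

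*Cers6* (NCBI gene 241447, chromosome 2), another palmitoyl ceramide synthase, had 22.1, 37.3, 40.0 and 23.8 CPM in flox/flox and 41.7, 30.6 and 42.8 CPM in HKO livers. Flox/flox livers fell into a lower pair (replicates 1 and 4) and a higher pair, and HKO replicates 1 and 3 lay just over the latter. The log2 fold change was 0.32 (standard error 0.24, interval -0.21 to 0.85, adjusted p = 0.390 from edgeR). It ran from 0.13 to 0.47 in the 18 alternative fits and was 0.19 and 0.21 without flox/flox replicates 1 and 4.

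Levels of different genes were compared per length, as FPKM divided by the TMM factor. In flox/flox livers *Cers2* led at 86.0 ± 6.72 FPKM (SD, n = 4), followed by *Degs1* at 47.4 ± 7.40 FPKM, and their ranges did not overlap. *Ugcg*, *Sptlc1*, *Sptlc2*, *Kdsr*, *Cers5*, *Sgms1* and *Cers6* came next in falling order, from 7.33 ± 1.37 FPKM to 1.53 ± 0.453 FPKM, and each overlapped the next. *Cers4* was last at 0.593 ± 0.223 FPKM. In HKO livers *Cers2* was first at 82.6 ± 15.8 FPKM (SD, n = 3), and *Degs1* second at 21.5 ± 4.67 FPKM. *Cers6* is divided by a length of 20179 bases, against 1888 to 7694 bases for the other members, so its FPKM is low for its counts.

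As a share of the summed FPKM of *Cers2* to *Cers6*, which needs no scaling between libraries, *Cers2* took 93.2%, 94.2%, 91.0% and 95.2% in flox/flox livers. It took 92.5%, 84.5% and 93.8% in HKO livers, so HKO replicate 2 was lowest. *Cers5* took 4.29% ± 1.26 (SD, n = 4) and 6.51% ± 4.68 (SD, n = 3), and the latter reached 11.9% in HKO replicate 2 and became 3.81% without it. *Cers6* took 1.66% ± 0.497 and 2.11% ± 0.461, and *Cers4* 0.655% ± 0.273 and 1.11% ± 0.678. *Cers3* had at most 2 counts in any liver. The shares are descriptions, and their ranges overlapped for every gene.

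*Degs1* (NCBI gene 13244, chromosome 1) encodes the enzyme that turns dihydroceramide into ceramide. It had 74.9, 95.3, 106 and 81.6 CPM in flox/flox replicates 1 to 4 and 41.6, 31.5 and 49.0 CPM in HKO replicates 1 to 3. Every HKO liver was well beneath the lowest control, including replicate 3, whose *B4galt1* was not low. The log2 fold change was -1.14 (standard error 0.21, interval -1.60 to -0.67, adjusted p = 0.00811 from edgeR), a 2.20-fold lower level. It was called in all 18 alternative fits, with log2 fold changes from -1.30 to -0.98. The largest adjusted p, 0.0300, came without flox/flox replicate 2. Over raw counts the gene had 2889 to 4532 reads in flox/flox and 1043 to 1490 in HKO libraries, so counting error was small beside the spread between mice. Leaving out the mitochondrially encoded genes gave -1.14.

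Ceramide leaves the chain towards sphingomyelin or glucosylceramide. *Sgms1* (NCBI gene 208449, chromosome 19), a Golgi sphingomyelin synthase, had 10.1, 16.2, 26.1 and 12.0 CPM in flox/flox and 15.7, 10.1 and 12.6 CPM in HKO livers. Flox/flox replicate 3 was the highest, and the other livers were mixed. The log2 fold change was -0.33 (standard error 0.31, interval -1.01 to 0.35, adjusted p = 0.490 from edgeR), and 0.0033 without flox/flox replicate 3. *Ugcg* (NCBI gene 22234, chromosome 4), the glucosylceramide synthase, had 20.9, 27.3, 31.7 and 32.2 CPM against 39.3, 24.2 and 31.8 CPM. The groups overlapped, with a log2 fold change of 0.18 (standard error 0.22, interval -0.29 to 0.66, adjusted p = 0.594), which became -0.01 without HKO replicate 1. The FPKM ratio of *Ugcg* to *Sgms1* was 4.12, 3.36, 2.42 and 5.36 in flox/flox and 5.0, 4.77 and 5.05 in HKO livers, an even level in HKO livers within the wider flox/flox range.

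**Figure D2:**
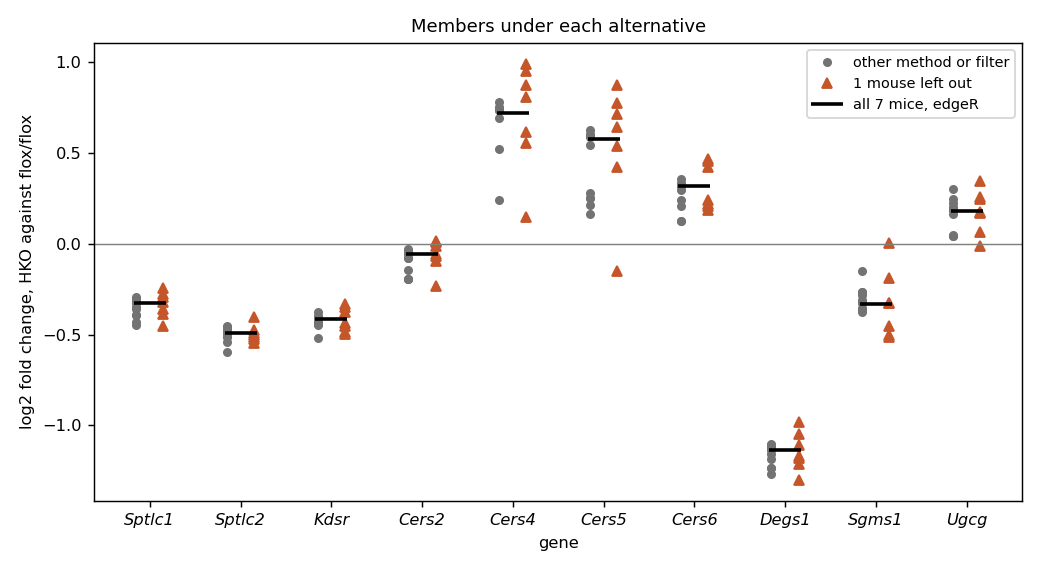
Log2 fold change of each member, HKO against flox/flox (vertical axis), in the edgeR fit of 7 mice (black bar), under other methods and filters (grey circles) and with 1 mouse left out (orange triangles). *Degs1* stays between -1.30 and -0.98, and *Cers2*, *Cers5*, *Sgms1* and *Ugcg* cross 0 when a mouse is left out.

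Mice that were high for a given member were not always high for another. After group means were subtracted, Pearson's r of log2 CPM over the 7 mice had a median of 0.30 over the 45 pairs of members and ran from -0.72 for *Cers5* with *Ugcg* to 0.93 for *Kdsr* with *Cers6*. *Cers4* and *Cers5* had an r of 0.83, and HKO replicate 2 was the highest liver for both. These are descriptions over few mice, and the median was higher when some of the mice were left out. Within a mouse all members share its library and depth.

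Beyond the 10 members, 62 further genes of sphingolipid metabolism were listed, of which 56 were tested. *Sptssb* and *Cers3* had too few counts, and *Sptlc3*, *Cers1*, *Enpp7* and *Acer1* were not analysed here. Of the 56, 11 were called lower and 2 higher, against the 7.83% and 8.0% given above, with a median log2 fold change of -0.12. The calls, 13 in all, numbered 5 without flox/flox replicate 2 and 7 without HKO replicate 2, where 885 of 15005 and 1199 of 15450 genes were called in all. *Sgms2*, *Cptp*, *Smpd1*, *Smpd2*, *Asah1*, *Gla*, *Hexa* and *Aldh3a2* were not called without the former (edgeR adjusted p from 0.0506 for *Gla* to 0.108 for *Aldh3a2*), and of these *Sgms2* and *Gla* alone were still called without the latter. *Cptp* was also lost without flox/flox replicate 4, *Asah1* without flox/flox replicate 3, and *Smpd2* without flox/flox replicate 3 or HKO replicate 3.

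Of the regulators of serine palmitoyltransferase, *Ormdl1* was called. ORMDL proteins restrain the enzyme when ceramide is plentiful. *Ormdl1* had 11.6, 23.0, 23.1 and 23.3 CPM in flox/flox and 6.75, 2.62 and 7.80 CPM in HKO livers, without overlap. Its log2 fold change was -1.82 (standard error 0.37, interval -2.63 to -1.01, adjusted p = 0.0105 from edgeR). It was called in all 18 alternative fits. *Ormdl2* and *Ormdl3* overlapped between groups, with log2 fold changes of 0.03 (interval -0.38 to 0.45) and -0.10 (interval -0.57 to 0.37), both of which changed sign in some fits. *Sptssa*, the small subunit, had -0.52 (adjusted p = 0.178). *Degs2*, the hydroxylating relative of *Degs1*, and *Fa2h*, the fatty acid 2-hydroxylase, were scarce and not called by edgeR or DESeq2, at -1.22 (interval -2.70 to 0.26, adjusted p = 0.232) and -1.36 (interval -2.60 to -0.11, adjusted p = 0.122).

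Downstream of ceramide, *Sgms2*, the sphingomyelin synthase of the plasma membrane, was called lower where its Golgi counterpart *Sgms1* was not. It had 27.0 to 42.7 CPM in flox/flox and 16.0 to 21.9 CPM in HKO livers (log2 fold change -0.94, standard error 0.21, adjusted p = 0.0153 from edgeR). Whether the changes of *Sgms1* and *Sgms2* differ was not tested. *Cptp*, a ceramide-1-phosphate transfer protein, was also lower (-1.02, adjusted p = 0.0248), whereas the ceramide transfer protein *Cert1* (-0.05) and the ceramide kinase *Cerk* (-0.04) were not called. In glycosphingolipid synthesis 0 of 10 genes were called by edgeR, against 15.8% of all genes in either direction. DESeq2 called 0, against 10.3% lower and 11.3% higher, and 0 had an unadjusted p under 0.05, against 16.1% lower and 16.8% higher. Several of these genes were scarce, such as *B3gnt5* at a mean of 0.40 CPM in flox/flox livers, with an interval of -1.62 to 2.51. For such genes the absence of a call does not show an unchanged level. The lactosylceramide synthases *B4galt5* and *B4galt6*, relatives of the targeted gene, had log2 fold changes of -0.03 (interval -0.51 to 0.46) and -0.02 (interval -0.74 to 0.69), with signs that changed between fits.

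**Figure D3:**
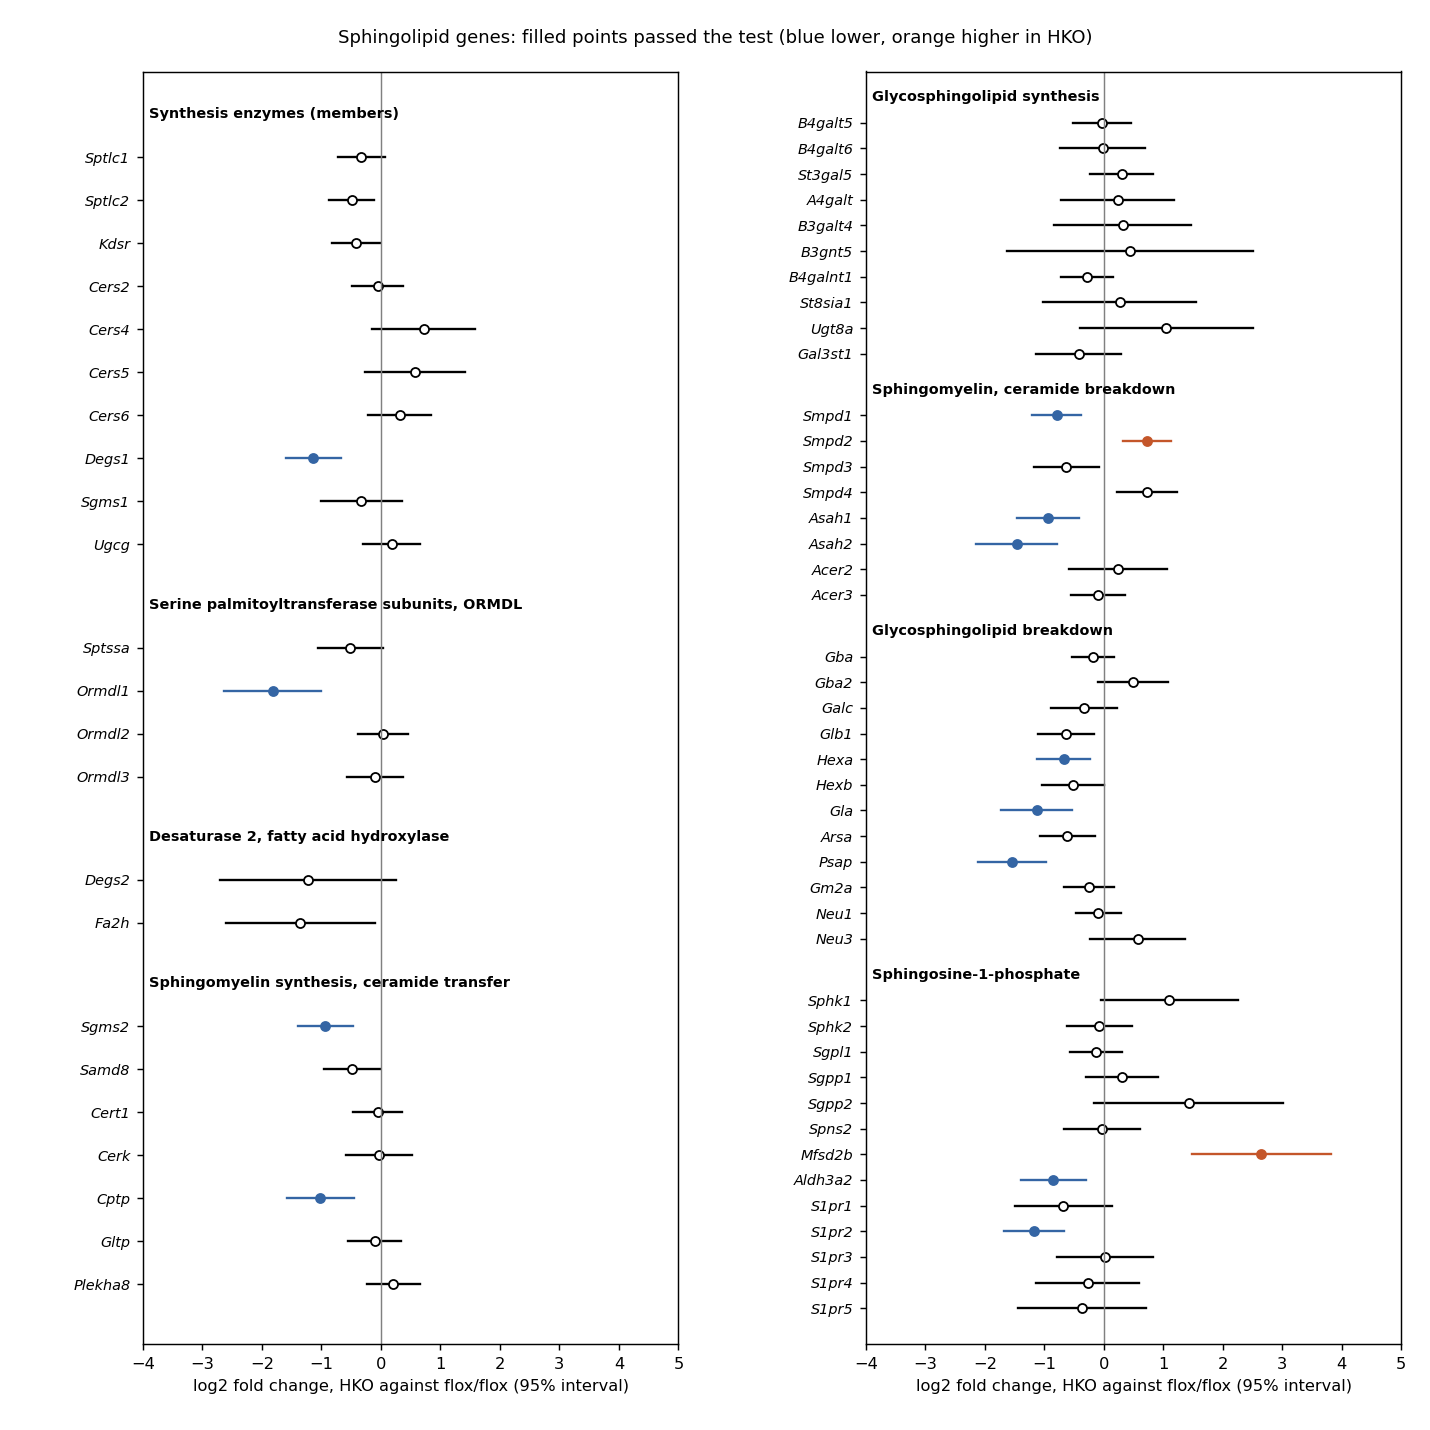
Log2 fold change, HKO against flox/flox (horizontal axis), with its 95% interval for the 10 members and the 56 other sphingolipid genes tested, grouped by role. Filled points were called (blue lower, orange higher), and they number 1 among the members and 13 among the other genes, with 0 in glycosphingolipid synthesis.

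Of the 8 genes that degrade sphingomyelin and ceramide, 3 fell and 1 rose by edgeR, against 7.83% and 8.0% of all genes. DESeq2 called 3 lower and 2 higher, against 10.3% and 11.3%. At an unadjusted p under 0.05, 4 were lower and 2 higher, against 16.1% and 16.8%. Whether any list of these genes differs from the rest was not tested. The ceramidases *Asah1* of lysosomes (-0.94, adjusted p = 0.0241 from edgeR) and *Asah2* of the cell surface (-1.47, adjusted p = 0.0122) were lower. The lysosomal sphingomyelinase *Smpd1* was also lower (-0.79, adjusted p = 0.0193). Of the neutral sphingomyelinases, *Smpd2* was higher (0.73, adjusted p = 0.0249). *Smpd3* (-0.63, adjusted p = 0.105) and *Smpd4* (0.72, adjusted p = 0.0554) went opposite ways and were not called by edgeR. *Smpd2* was not called by limma on log2(FPKM + 1), at 0.579 with an adjusted p of 0.0457 for genes at 1 FPKM or more in 3 mice and 0.108 for all genes above 0. Of the 12 genes of glycosphingolipid breakdown, 3 fell and 0 rose by edgeR. DESeq2 called 5 lower and 0 higher, against 10.3% and 11.3% of all genes, and 6 were lower and 0 higher at an unadjusted p under 0.05, against 16.1% and 16.8%. *Psap*, which encodes the saposin activators of lysosomal hydrolases, went from 1152 to 2188 CPM in flox/flox to 499 to 594 CPM in HKO livers (-1.54, adjusted p = 0.00581). The lysosomal hydrolases *Gla* (-1.13, adjusted p = 0.0193) and *Hexa* (-0.67, adjusted p = 0.0443) were the others, and *Hexa* was no longer called whichever of the 7 mice was left out or by voom with quality weights (-0.53, adjusted p = 0.0429). *Gla* was not called by limma on log2(FPKM + 1) of all genes above 0 (-0.94, adjusted p = 0.0786). Macrophages are rich in lysosomes, and their summed markers were 284 to 518 CPM against 186 to 214 CPM in the same livers. The part of this difference in the lysosomal genes was not tested.

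In the handling of sphingosine-1-phosphate, 2 of 13 genes fell and 1 rose, against 7.83% and 8.0% of all genes. *S1pr2*, a receptor, was at 9.13 to 12.1 CPM in flox/flox and 4.16 to 5.76 CPM in HKO livers (-1.18, adjusted p = 0.00938 from edgeR). *Aldh3a2*, which oxidizes the aldehyde released when the lipid is cleaved and fatty aldehydes in general, was lower (-0.85, adjusted p = 0.0397) and was called only with flox/flox replicate 1 or HKO replicate 1 left out among the fits of 6 mice. *Mfsd2b*, the exporter of red blood cells and platelets, was scarce, at 0.187 to 0.621 CPM in flox/flox and 1.48 to 4.74 CPM in HKO livers (2.65, adjusted p = 0.0103). *Mfsd2b* was not called by limma on log2(FPKM + 1) of all genes above 0 (0.68, adjusted p = 0.10), and the filters of 10 counts in every mouse and 1 FPKM in 3 mice removed it.

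**Figure D4:**
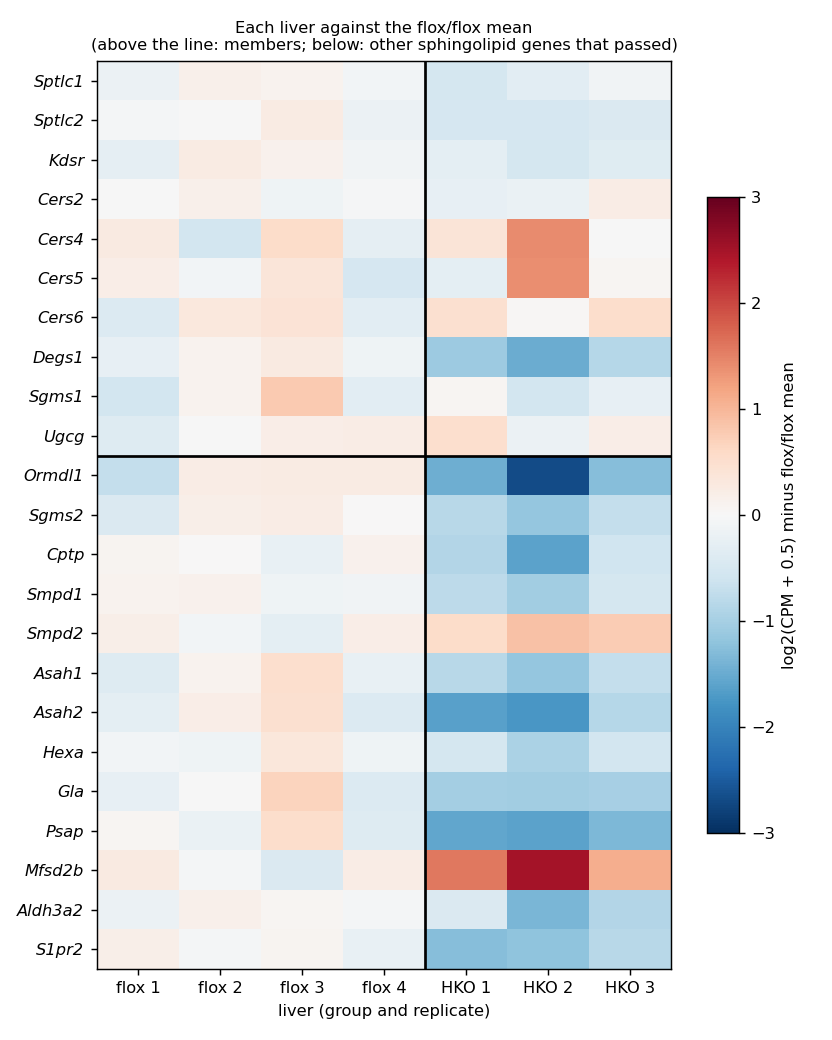
Log2(CPM + 0.5) of each liver (columns) minus the flox/flox mean, for the 10 members (above the line) and the 13 other sphingolipid genes called (rows), with blue lower and red higher. *Degs1* is blue in all 3 HKO livers while *Cers2* and *Ugcg* are mixed, and red for *Cers4* and *Cers5* is strongest in HKO replicate 2.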

How the data were processed

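Liver RNA from 4 flox/flox and 3 HKO mice on the CDAHFD was extracted with TRIzol and made into libraries with the VAHTS Universal V6 kit. The authors deposited counts, whole numbers per gene and mouse without normalization. The authors also deposited FPKM, which equalled count over a fixed gene length and the library total: of 13374 genes whose counts reached 10 in all mice, 0 deviated by more than 1 percent. The submitters' processing notes name fastp, HISAT2, HTSeq, DESeq2, R 3.2.0 and GRCm39, without roles. The annotation and the strand setting of the counting are not given in the sources used here.

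Genes were kept by filterByExpr (minimum count 10, minimum total 15), scaled by TMM and tested with edgeR 4.0.16 (quasi-likelihood F-test, group as sole term) in R 4.3.3, with Benjamini-Hochberg adjustment. Fold change and p thresholds follow the study's methods, which used DESeq2. Standard errors came from the F statistic, and 95% intervals from its degrees of freedom. At these depths 3 counts correspond to 0.0756 to 0.0980 CPM. Scripts were tested on simulated data. Promoter sequences are RefSeq's, in GRCm38.p6, and chromosomes are from the same assembly, matched by gene identifier for all 10 members.

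Named genes were the members, *B4galt1*, every other listed sphingolipid gene called, *B4galt5*, *B4galt6* and the *Ormdl* genes. A few uncalled list genes (*Sptssa*, *Cert1*, *Cerk*, *Degs2*, *Fa2h*, *B3gnt5*, *Smpd3*, *Smpd4*) and markers were named after their values were seen. The members, lists and tests were chosen with earlier results of these data known. The labels' replicates are separate mice, and each of the 21 library pairs differed by more than sampling noise (chi-square of at least 60.3 per gene). Alternatives were RLE and upper-quartile scaling, omission of mitochondrially encoded genes, 2 other filters, DESeq2 1.42.0, limma 3.58.1 (voom with quality weights, and log2 FPKM with pseudocounts of 1 and 0.1, which understate changes of low genes), the replicate block, p alone as threshold, and each mouse left out.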

Additional observations from a re-analysis of the deposited data

Results flagged for a closer look

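Of 35 sets of flox/flox values examined, 3 had a liver whose gap to the rest exceeded the 95% critical value of Dixon's test for 4 samples, and chance gives about 1 in 20. *Ormdl1* was at 11.6 CPM in flox/flox replicate 1 and between 23.0 and 23.3 CPM in the other 3. *Hexa* was at 139 CPM in flox/flox replicate 3, against 100.4 to 105 CPM. *B4galt6* was at 17.8 CPM in flox/flox replicate 3, against 9.30 to 10.1 CPM. None of the 10 synthesis enzymes was among them. The 3 HKO livers were not examined in this way.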

How the results depend on the processing

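*Degs1* was called in all 18 alternative fits, and *Cers4* could be fitted in 16 because its FPKM was too low for 2 of them. Over the 10 members, 172 of 178 alternative values kept direction and call. The number of members called was 1 in each alternative except limma on log2(FPKM + 0.1), where it was 2. With a mouse left out, log2 fold changes ran from -0.23 to 0.015 for *Cers2*, -0.15 to 0.88 for *Cers5*, -0.51 to 0.0033 for *Sgms1*, -0.010 to 0.34 for *Ugcg*, -0.18 to 0.15 for *B4galt5*, -0.43 to 0.25 for *B4galt6*, -0.060 to 0.15 for *Ormdl2* and -0.40 to 0.062 for *Ormdl3*. *B4galt5* was at 0.0067 with upper-quartile scaling and 0.053 with voom, *B4galt6* at 0.041 with upper-quartile scaling and 0.011 with at least 10 counts in every mouse, and *Ormdl2* at -0.086, -0.091 and -0.086 in the 3 FPKM fits. Counts of other sphingolipid genes called ranged from 5 to 13 with a mouse left out, against 13, and the median r among members, an alternative chosen after seeing the data, from 0.30 to 0.50. Over all genes, 2404 calls became 885 to 2396 with a mouse left out (885 without flox/flox replicate 2, 1199 without HKO replicate 2, 1405 and 1552 without flox/flox replicates 3 and 4) and 1330 on log2(FPKM + 1) of all genes above 0. The cause was not tested. The FPKM fits used no TMM factor. On log2(FPKM + 1) of genes at 1 or more in 3 mice, 24.5% of calls were higher against 50.5% with TMM. These 10914 genes had a median change of -0.14 there and -0.05 with TMM. With a pseudocount of 0.1, 23.6% of calls were higher and the median change was -0.18. Replicate numbers are shared by mice that nothing pairs: deviations of same-numbered mice correlated at -0.42, -0.10 and 0.09, and 0 of 3 correlated best with their own number. With the replicate block, 7 other sphingolipid genes and 1267 genes in all were called. *Sgms2*, *Cptp*, *Smpd1*, *Smpd2*, *Hexa* and *Aldh3a2* were not, and *Degs1* was still called (-1.19, adjusted p = 0.0187 from edgeR).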
